A study of Homo sapiens with 6 samples.

Results

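The ribosomal RNA genes RNA5S9 and RNA28SN5 were measured in HEK293 cells, an established line from human embryonic kidney, at 3 times of exposure to sodium salicylate. They are 2 of the 20046 genes with a named probe on the Illumina bead array. All probes whose gene symbol in the platform annotation is RNA5S9 or RNA28SN5 were taken, 3 of 47323, with 1 probe for RNA5S9 and 2 for RNA28SN5, and all 3 passed the filter on low values. The 3 groups were untreated cells (0 min, the control), cells given salicylate at 50 mM for 30 min and cells given the same dose for 60 min, with 2 arrays each. All groups were the same line in high-glucose medium with 10% serum and antibiotics, and no mock treatment is named, so salicylate itself cannot be told apart from handling, time in the experiment or the added sodium. Whether the arrays of a group stand for separate cultures is not stated, and the spread between them, and with it every p-value, may be technical only. The 2 genes were chosen by their measured differences from control at 30 and 60 min on these arrays, so their own differences are given as a description with no test.

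5S RNA is a small RNA of the large (60S) ribosomal subunit, made by RNA polymerase III from repeated genes outside the nucleolar repeats. It binds the ribosomal proteins RPL5 and RPL11 before it enters the subunit. 28S RNA is the long RNA of the same subunit, cut from a precursor that RNA polymerase I transcribes and that also holds 18S RNA of the small (40S) subunit and 5.8S RNA. Neither mature RNA carries a poly(A) tail. Per the labels' protocol, reverse transcription was primed with an oligo(dT) primer, so a change in the amount of these RNAs and a change in how much of them was primed cannot be told apart on these arrays. Of 17 RNA5S symbols in the RefSeq table, RNA5S9 alone had a probe named for it, and its neighbours in that table are RNA5S8 and RNA5S10. RNA28SN5 is likewise 1 of 5 symbols for near-identical 28S copies. A probe named for a copy may therefore have measured others.

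The 6 arrays detected between 20726 and 21740 probes (detection p-value under 0.05), with median intensities between 143.1 and 147.6. Values below are log2 of background-corrected, quantile-normalized intensity unless they are called deposited intensities, which are linear and not normalized. A difference is the later or treated group minus the earlier or control group, with the standard error (SE) of a limma fit that pools the spread over the 3 groups. Of the HEK293 markers, VIM, KRT8, KRT18 and NEFM were detected on all 6 arrays and PAX2 on none. Of the blood cell markers, PTPRC and CD3E were detected on no array and CD14 on all 6. The deposited intensity summed over all probes of these 3 blood markers was 1127 to 1196 in controls, 1239 to 1299 at 30 min and 1066 to 1078 at 60 min. This sum includes the background of the probes detected on no array. The part of these markers in the results was not tested.

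RNA5S9 was far higher at both times, and most of the difference was already there at 30 min. The deposited intensity of its probe, ILMN_3234762, was 385.3 and 429.8 on the control arrays, 2965 and 2914 on the 30 min arrays, and 4348 and 4269 on the 60 min arrays. Every later array lay above every earlier one. The share of all detected probes with such an order is not given here, so such orders are description only, here and below. In bulk RNA of this kind, a difference shared by all cells and a larger one in some of them cannot be told apart. On the log2 scale the values were 8.25 and 8.15 in controls, 11.44 and 11.43 at 30 min, and 12.13 and 12.04 at 60 min. The 30 min arrays stood above the controls by 3.23 ± 0.068 (SE, n = 2 arrays per group), a 9.40-fold difference in normalized intensity. The 60 min arrays stood above the controls by 3.89 ± 0.068, or 14.8-fold, and above the 30 min arrays by 0.65 ± 0.068. In both comparisons with control this was the highest change of the 22377 detected probes, while between 30 and 60 min it ranked 259 from the top. The background of calls over all genes (adjusted p under 0.05) was 0.151% higher and 0.175% lower at 30 min against control, and 10.5% higher and 12.3% lower at 60 min against control. The rule used those contrasts, and nothing is read from them for the members.

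**Figure D1:**
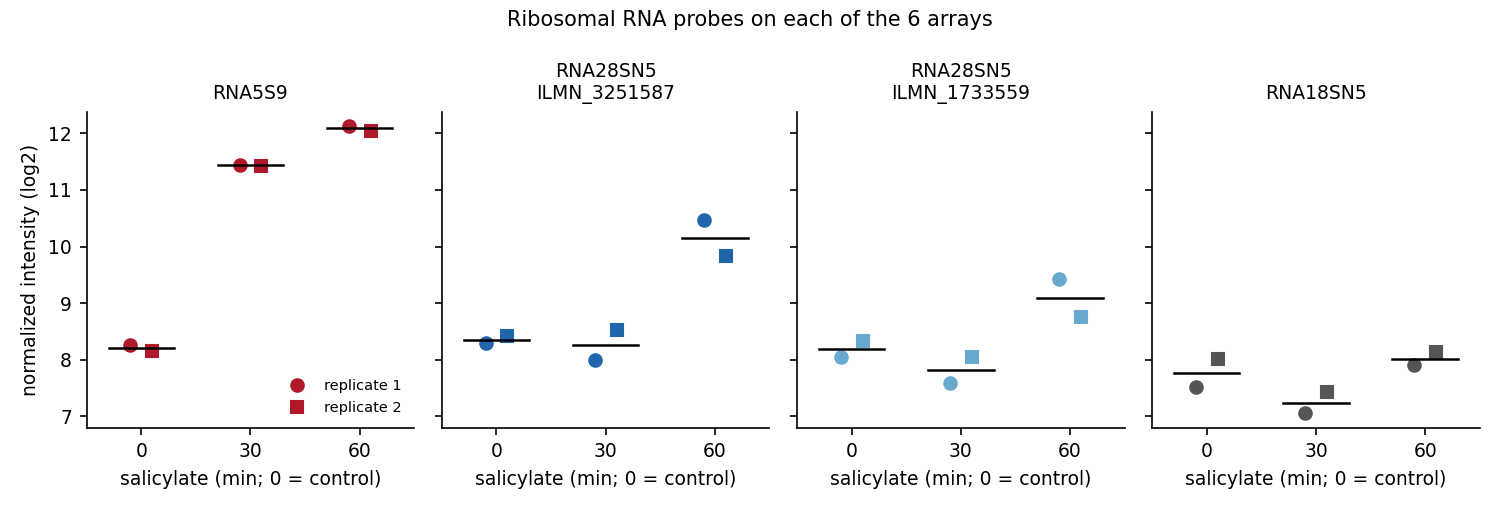
Normalized intensity (log2) of the RNA5S9 probe, the 2 RNA28SN5 probes and the RNA18SN5 probe against minutes of salicylate, with 0 for the control; circles are replicate 1, squares replicate 2 and bars the mean of 2 arrays. RNA5S9 stands near 8.2 in controls, 11.43 at 30 min and 12.09 at 60 min, whereas both RNA28SN5 probes are high at 60 min only.

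RNA28SN5 followed another course: neither of its probes was higher at 30 min, and both were higher at 60 min. Probe ILMN_3251587 had deposited intensities of 393.0 and 496.8 in controls, 367.0 and 483.2 at 30 min, and 1410 and 965.5 at 60 min. The first 2 groups overlapped, and both 60 min arrays lay above the other 4. Its log2 values were 8.29 and 8.42 in controls, 7.99 and 8.52 at 30 min, and 10.46 and 9.83 at 60 min. The difference was -0.10 ± 0.19 at 30 min against control, 1.79 ± 0.19 (3.47-fold) at 60 min against control and 1.89 ± 0.19 (3.70-fold) at 60 min against 30 min. The sign at 30 min rested on single arrays, being 0.17 without 30 min replicate 1 and -0.36 without 30 min replicate 2. Among the 22377 detected probes its change ranked 8 from the top at 60 min against control and 3 at 60 min against 30 min. Between 30 and 60 min only probes of the U3 small nucleolar RNA genes SNORD3D and SNORD3C ranked higher, at 2.00 and 1.96.

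The other RNA28SN5 probe, ILMN_1733559, gave the same order of groups with smaller differences. Its deposited intensities were 349.6 and 471.8 in controls, 303.2 and 374.4 at 30 min, and 742.5 and 516.2 at 60 min. Both 60 min arrays lay above the other 4, though replicate 2 at 60 min exceeded the brighter control by little. The log2 values were 8.05 and 8.32 in controls, 7.59 and 8.04 at 30 min, and 9.43 and 8.75 at 60 min. The difference from control was -0.37 ± 0.20 at 30 min and 0.90 ± 0.20 (1.87-fold) at 60 min, and the 60 min arrays stood above the 30 min arrays by 1.27 ± 0.20. At 30 min the deposited intensities overlapped those of the controls, while the normalized values came out just below them. At 60 min the difference from control was 0.56 without 60 min replicate 1 and 1.24 without 60 min replicate 2.

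The probes of RNA28SN5 therefore changed by unequal amounts on the same arrays. On each array the log2 deposited intensity of ILMN_3251587 minus that of ILMN_1733559 does not depend on scaling between arrays. It was 0.17 and 0.07 in controls, 0.28 and 0.37 at 30 min, and 0.93 and 0.90 at 60 min. The replicates of this difference lay close together although each probe alone varied more, and it was not tested. The positions of the probes within 28S RNA are not given in the sources used here.

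**Figure D2:**
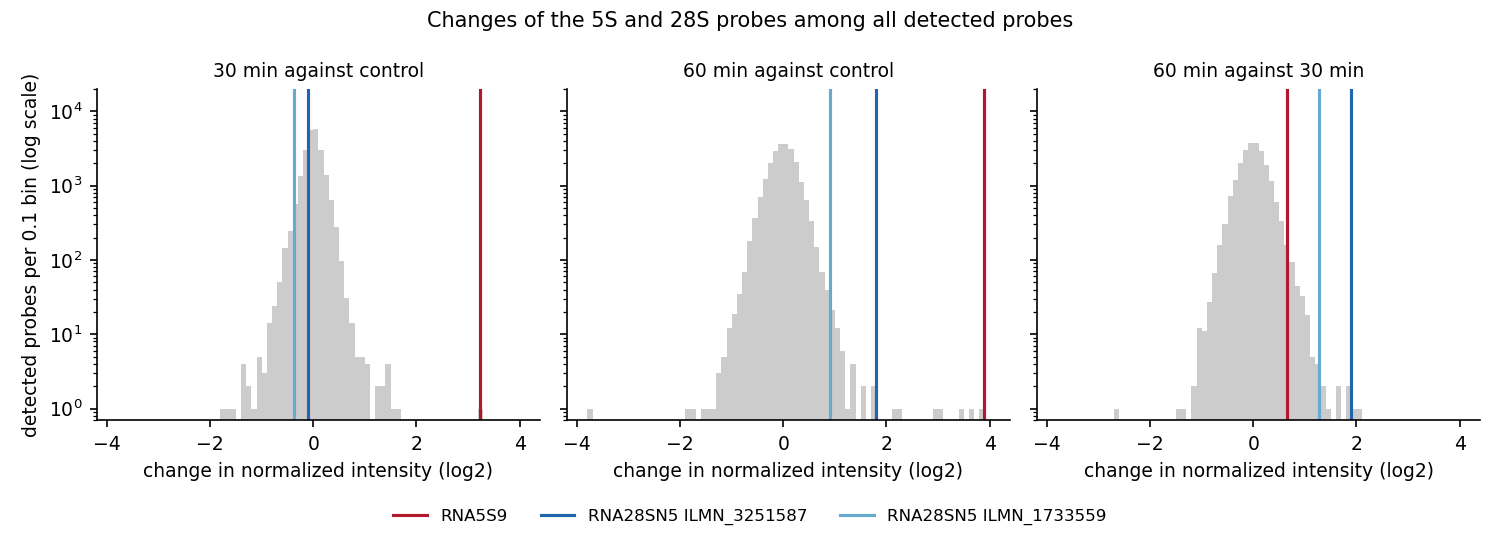
Number of detected probes (log scale) by change in normalized intensity (log2, bins of 0.1) for each comparison of 2 groups, with lines at the RNA5S9 probe and the 2 RNA28SN5 probes. RNA5S9 lies beyond all other probes at 3.23 and 3.89 against control, and the RNA28SN5 probes lie in the upper tail only where the 60 min arrays are compared.

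The RNA5S9 probe repeated closely between the arrays of a group, whereas the RNA28SN5 probes varied more, mainly at 30 and 60 min. The log2 value of replicate 2 minus replicate 1 for RNA5S9 was -0.10 in controls, -0.007 at 30 min and -0.09 at 60 min. The median size of this gap over detected probes was 0.10, 0.10 and 0.12 in the same groups, so RNA5S9 varied by no more than a typical probe. For ILMN_3251587 the gap was 0.13, 0.53 and -0.63, and for ILMN_1733559 it was 0.27, 0.45 and -0.68. At 60 min these gaps were larger than those of 97.9% and 98.4% of detected probes. Both probes were brighter on replicate 2 in controls and at 30 min, and on replicate 1 at 60 min. None of the 12 other polymerase III RNAs and 3 U3 genes tested had so large a gap at 60 min, where it was 0.33 for RPPH1, the largest, and 0.11 for SNORD3A, 0.010 for RN7SK and 0.050 for RMRP. In the other groups wide gaps were not particular to the RNA28SN5 probes. The RNA18SN5 probe had 0.49 in controls and 0.38 at 30 min, and VTRNA2-1 had 0.53 in controls.

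The time courses also differed on the linear scale, where a constant background cancels in a difference. The mean deposited intensity of RNA5S9 was 407.5 in controls, 2940 at 30 min and 4308 at 60 min, so that 64.9% of its 60 min gain was present at 30 min. For ILMN_3251587 the means were 444.9, 425.1 and 1188, and for ILMN_1733559 they were 410.7, 338.8 and 629.4. Both RNA28SN5 probes thus had their whole gain between 30 and 60 min. The highest RNA5S9 intensity, 4348, was well below the highest of any probe on that array, 59052.

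RNA18SN5, a gene for the 18S RNA cut from the same precursor as 28S RNA, was measured by 1 probe and did not pass the threshold against control at either time. Its log2 values were 7.52 and 8.01 in controls, 7.05 and 7.43 at 30 min, and 7.90 and 8.13 at 60 min. The difference from control was -0.53 ± 0.17 at 30 min (limma adjusted p = 0.285) and 0.25 ± 0.17 at 60 min (adjusted p = 0.328). It rose by 0.78 ± 0.17 at 60 min against 30 min (adjusted p = 0.00774, where 10.9% of all genes were called higher), a call lost without 30 min replicate 1. All 3 rRNA probes of the polymerase I precursor thus had their lowest mean at 30 min and their highest at 60 min. On each array the log2 value of ILMN_3251587 minus that of RNA18SN5 was 0.77 and 0.40 in controls, 0.94 and 1.09 at 30 min, and 2.56 and 1.70 at 60 min. These differences were not tested. The 28S probe rose more than the 18S probe at 60 min against either other group. At 30 min against control it was the 18S probe that stood lower, by -0.53 beside -0.10 for ILMN_3251587. For ILMN_1733559 the corresponding differences were 0.53 and 0.31, 0.54 and 0.61, and 1.53 and 0.62, so that replicate 2 at 60 min lay next to the 30 min arrays. RNA5-8SN5, RNA45SN5 and the mitochondrial MT-RNR1 and MT-RNR2 had no probe named for them.

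Among 12 tested RNAs that RNA polymerase III also makes, 3 rose and 0 fell at 30 min against control, beside 0.151% of all genes called higher. At 60 min against control 7 rose and 0 fell, beside 10.5% of all genes called higher. These are changes in probe intensity. For these RNAs too, a change in amount and a change in how much was primed cannot be told apart. RMRP, VTRNA1-1 and VTRNA2-1 were not detected on every control array and were tested through the arrays where they were higher. Of the 9 RNAs detected on all 6 arrays, 2 rose at 30 min and 4 at 60 min, and 0 fell at either time. Their median difference was 0.22 at 30 min and 0.32 at 60 min, beside -0.004 and -0.008 over all 12547 genes tested. RMRP, the RNA of RNase MRP, which cuts precursor rRNA, was not detected above background in the controls. On background-corrected values its rise was at least 2.26-fold at 30 min (limma adjusted p = 0.00138) and at least 3.94-fold at 60 min (adjusted p = 1.05e-05). Without that correction it was higher by 0.64 (1.55-fold) and by 1.10 on the log2 scale, both under these bounds, which hold for corrected values only. RPPH1, the RNase P RNA, rose by 0.98 ± 0.12 and 1.36 ± 0.12, and RN7SK, which holds the elongation factor P-TEFb inactive, by 0.60 ± 0.073 and 1.51 ± 0.073 on the probe with the highest mean. The other detected RN7SK probe, ILMN_1739423, had larger differences of 1.41 ± 0.17 and 2.16 ± 0.17. The 30 min call of RN7SK was lost without control replicate 1, and that of RPPH1 without either control array or 30 min replicate 1. Of the other 4 that rose at 60 min, VTRNA2-1 rose by 1.54 ± 0.20 and VTRNA1-1, a vault RNA, at least 1.89-fold. BCYRN1, a brain cytoplasmic RNA, rose by 0.54 ± 0.070, and RNU6-1, a U6 spliceosomal RNA, by 0.30 ± 0.068. Without background correction VTRNA2-1 was higher by 0.71 and VTRNA1-1 by 0.61, or 1.52-fold, at 60 min. The RNU6-1 call was lost without control replicate 2, without 60 min replicate 2 and with median scaling.

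The other 5 tested RNAs of the list did not pass the threshold. The Y RNAs RNY1, RNY3 and RNY5 had differences of 0.14, -0.21 and 0.32 at 60 min, and RNU6ATAC of the minor spliceosome 0.34. RN7SL1, the RNA of the signal recognition particle, had -0.29 (limma adjusted p between 0.068 and 0.561 for these 5). When 1 array was left out the RN7SL1 difference lay between -0.42 and -0.15. The RNU6ATAC difference from control was larger at 30 min, at 0.56 ± 0.16. On its other detected probe, ILMN_3241878, it was 0.78 ± 0.17 at 30 min and 0.32 ± 0.17 at 60 min. In the share of the 60 min gain in mean deposited intensity present at 30 min, RNA5S9 at 64.9% lay between RMRP at 52.3% and RPPH1 at 72.0%. Among the others called at 60 min the share was 9.3% for VTRNA1-1, 32.2% for RN7SK, 32.85% for VTRNA2-1 and 39.5% for BCYRN1. RNU6-1 stood at 103.6%, and the 3 U3 genes SNORD3A, SNORD3C and SNORD3D between 20.1% and 20.8%. These shares are descriptions of 2 arrays per group and were not tested.

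**Figure D3:**
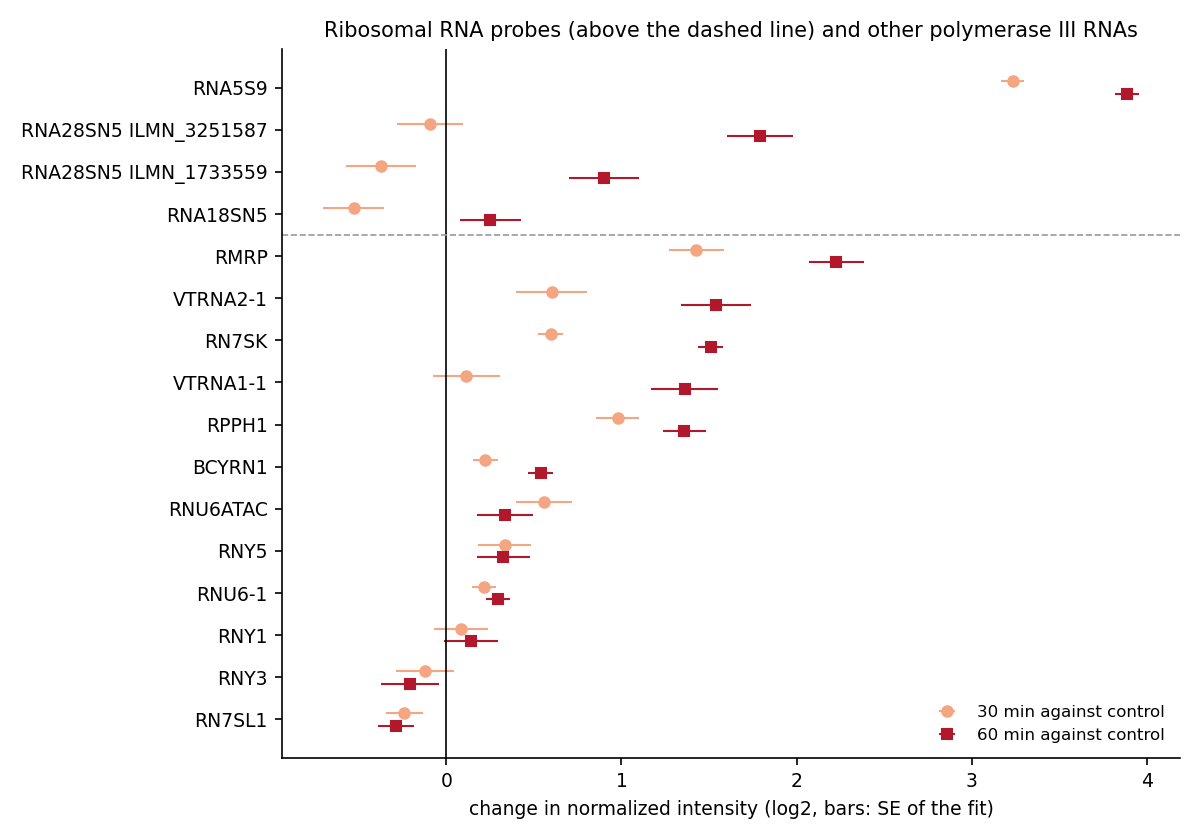
Change in normalized intensity (log2, bars are the SE of the fit) at 30 min (circles) and 60 min (squares) against control for the ribosomal RNA probes and the 12 other polymerase III RNAs tested. RNA5S9 is at 3.23 and 3.89, the RNA28SN5 probes change place between the times, and RMRP and VTRNA1-1 were not above background in controls, so their points are fitted values and not bounds.

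The genes with the profile nearest to each member probe were found by the root mean square difference between centred log2 values over the 6 arrays, where each profile has its own mean removed. For RNA5S9 the nearest were SNORD3D at 0.69, SNORD3C at 0.75, SNORD3A at 0.82, RMRP at 0.83 and the small nucleolar RNA SNORA57 at 0.93, beside a median of 1.71 over all genes. At 30 min RNA5S9 stood 3.23 above control, against 1.68 for SNORD3D, the largest difference of these 5. For ILMN_3251587 the nearest were VTRNA1-1 at 0.36, the smooth muscle actin gene ACTA2 at 0.42, MEGF6 at 0.43, the collagen cross-linking enzyme gene LOX at 0.44 and the transporter gene SLC67A1 at 0.45, beside a median of 0.91. VTRNA1-1 was not above background on the 4 control and 30 min arrays, so its place rests on background values there. ACTA2 had a difference of -0.01 at 30 min and 1.14 at 60 min against control, and LOX of 0.16 and 1.33. For ILMN_1733559 the nearest were FNDC1 at 0.20, PAQR5, ASB9 and NSG1 at 0.24, 0.24 and 0.25, and SLC67A1 at 0.25, beside a median of 0.60. SLC67A1 was the only gene among the 5 nearest of both RNA28SN5 probes, and none was shared with RNA5S9.

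Of 8 tested genes for proteins that bind 5S RNA and their partners, none passed the threshold at 30 min and 3 passed at 60 min, when RPL5 and RPF2 rose and RRS1 fell. At 30 min limma called 0 of them, beside 0.327% of all genes, and 2 had an unadjusted p under 0.05, a level reached by 11.2% of all genes. The 3 called at 60 min are 37.5% of the list, beside 22.9% of all genes. At 60 min RPL5 rose by 0.20 ± 0.050 (adjusted p = 0.014), and its difference at 30 min was also 0.20 ± 0.050 (adjusted p = 0.195). RPF2, which helps to place 5S RNA in the growing subunit, rose by 0.20 ± 0.051 at 60 min. Its partner RRS1 fell, with a difference of -0.33 ± 0.073. These calls were lost without control replicate 2, those of RPL5 and RPF2 also without control replicate 1 and with median scaling, and that of RPF2 also without 60 min replicate 2. RPL11 had a difference of 0.013 ± 0.058, the 5S transcription factor gene GTF3A of 0.078 ± 0.053, and SSB, whose La protein binds the ends of new polymerase III transcripts, of 0.067 ± 0.051, with adjusted p-values of 0.904, 0.328 and 0.381.

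Genes of the polymerases that make the 2 RNAs were called in both directions at 60 min, at shares near that of all genes. Of 23 tested genes for RNA polymerase III and its factors, 0 passed at 30 min (4 at an unadjusted p under 0.05), and 2 rose and 4 fell at 60 min (26.1%, beside 22.9% of all genes), with a median of 0.021. GTF3C3, a subunit of the factor TFIIIC, rose by 0.48 ± 0.070 and POLR3GL, a polymerase subunit, by 0.47 ± 0.076, while GTF3C4 fell, with a difference of -0.42 ± 0.075. Of 16 tested genes for RNA polymerase I and its factors, 0 passed at 30 min (4 at an unadjusted p under 0.05), and 2 rose and 3 fell at 60 min (31.2%, beside the same 22.9%), with a median of -0.040. Over all genes 11.2% had an unadjusted p under 0.05 at 30 min. At 60 min TAF1D rose by 0.64 ± 0.17, after an uncalled difference of 0.74 at 30 min, the highest of this list. TAF1D was not tested where detection was required on all 6 arrays, and 1 gene of this list rose under that filter. Among the other processing choices its 60 min difference was as small as 0.27. POLR1G and TAF1C fell at 60 min, with differences of -0.52 ± 0.12 and -0.31 ± 0.055. POLR1C, a subunit of both polymerases, fell, with a difference of -0.29 ± 0.053. RRN3, the initiation factor of polymerase I, was among 5 genes of this list lower at 60 min than at 30 min, with a difference of -0.54 ± 0.080 (adjusted p = 0.00112), beside 11.7% of all genes called lower. The TAF1D call was lost without control replicate 1 or 60 min replicate 2, that of POLR1G without control replicate 1 and that of TAF1C when the probes of a gene were averaged.

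**Figure D4:**
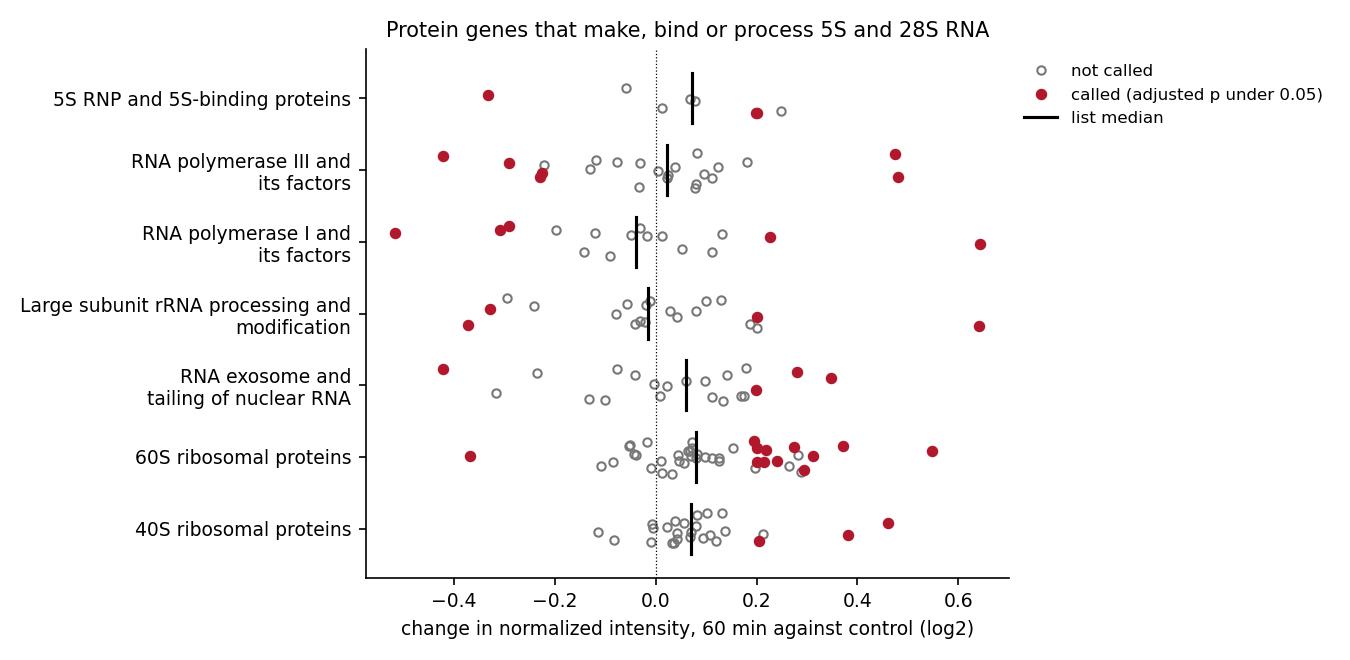
Change in normalized intensity (log2) at 60 min against control for each tested gene of 7 lists, with filled points for genes called, open points for the rest and bars at the list median. All changes lie between -0.52 and 0.64, and calls fall on both sides of 0 in every list except that of the 40S ribosomal proteins.

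Genes that process 28S RNA or degrade and tail nuclear RNA were also called at shares near that of all genes. Of 20 tested genes of large subunit rRNA processing, 0 passed at 30 min (2 at an unadjusted p under 0.05), and 2 rose and 2 fell at 60 min. LAS1L, which takes part in cutting the spacer next to 28S RNA, rose by 0.64 ± 0.060 (adjusted p = 6.57e-05), and NOP2, an rRNA methyltransferase, fell, with a difference of -0.37 ± 0.076, a call lost without control replicate 1. Of 21 tested genes of the RNA exosome and of tailing enzymes, 0 passed at 30 min (4 at an unadjusted p under 0.05), and 3 rose and 1 fell at 60 min. TENT4B, a polymerase that adds short A tails to nuclear RNA, was the gene that fell, with a difference of -0.42 ± 0.086, a call lost without control replicate 2. PARN, which removes A tails, rose by 0.35 ± 0.070, a call lost with median scaling. The share called at 60 min was 20% in the first list and 19.0% in the second, beside 22.9% of all genes, and 11.2% of all genes had an unadjusted p under 0.05 at 30 min.

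The protein genes of the ribosome were called mostly upward at 60 min, by small amounts. Of 42 tested 60S ribosomal protein genes, 0 passed at 30 min (4 at an unadjusted p under 0.05), and 11 rose and 1 fell at 60 min, with a median of 0.080 and the highest difference at 0.55 for RPL14. The 12 called are 28.6% of the list, beside 22.9% of all genes, with 10.5% of all genes called higher and 12.3% lower. RPL28 was the gene that fell, with a difference of -0.37 ± 0.076, a call lost without control replicate 1. Of 26 tested 40S genes, 0 passed at 30 min (6 at an unadjusted p under 0.05), and 3 rose and 0 fell at 60 min, with a median of 0.069. These are 11.5% of the 40S list, near the 10.5% of all genes called higher, and over all genes 11.2% had an unadjusted p under 0.05 at 30 min. The number of 60S genes that rose lay between 2 and 10 when 1 array was left out and was 4 with median scaling, and no 40S gene was called with that scaling.

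Processing changed the size of the RNA5S9 and RNA28SN5 differences but not the order of the groups by their means. Leaving out 30 min replicate 1 did change that order for ILMN_3251587, with 30 min above control by 0.17. Without background correction RNA5S9 was higher by 2.84 at 30 min and 3.48 at 60 min against control, and the RNA28SN5 probes by 1.52 and 0.71 at 60 min.

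**Figure D5:**
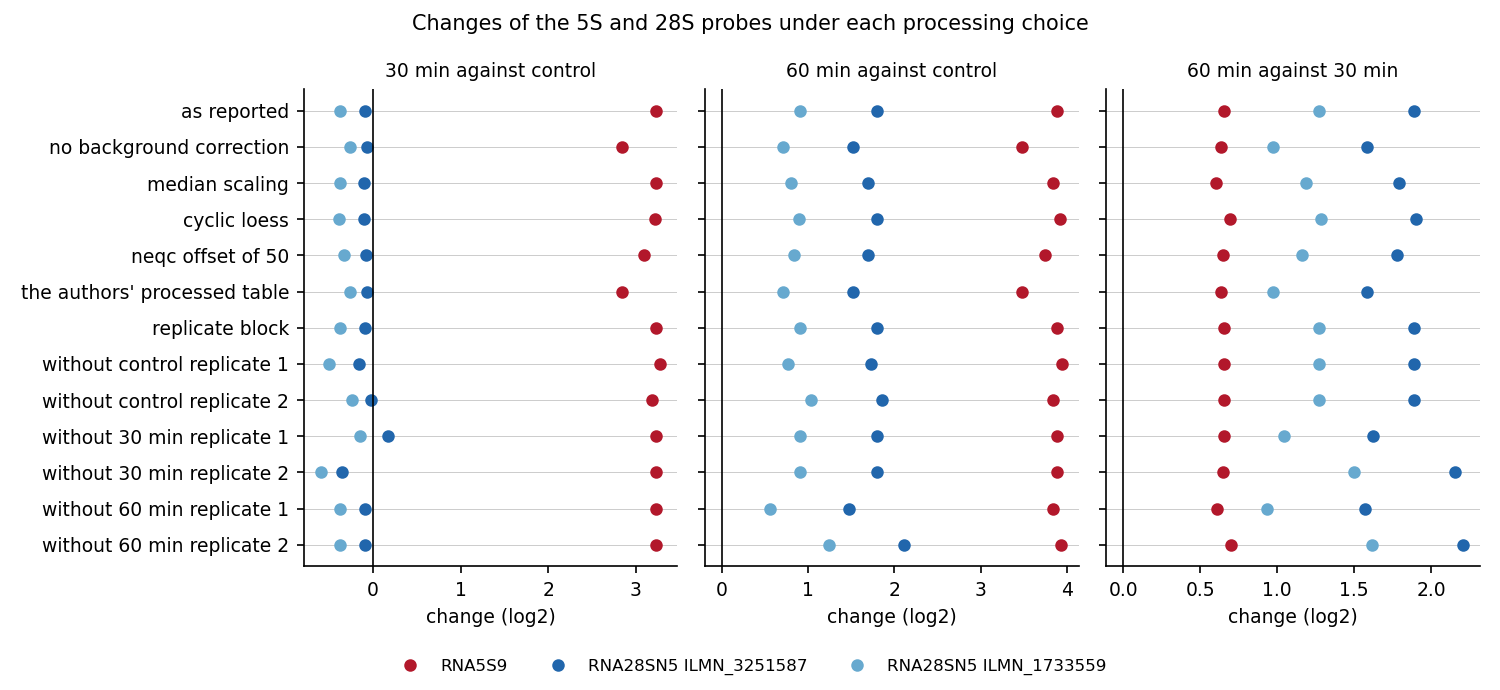
Change (log2) of the RNA5S9 probe and the 2 RNA28SN5 probes in each comparison, as reported and under each other processing choice or with 1 array left out. RNA5S9 stays between 2.84 and 3.28 at 30 min and between 3.48 and 3.94 at 60 min against control, and the RNA28SN5 probes stay above 0 wherever the 60 min arrays are compared.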

How the data were processed

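The authors deposited linear probe intensity values without normalization, each with its detection p-value. Each column of detection p-values was matched to the array with whose intensities it fell at 100% of steps, against at most 67.2% for another array. The authors' deposited processed table holds log2 values within 0.0041 of log2 quantile-normalized intensity; its steps are not given in the sources used here. The submitters' processing notes name GenomeStudio 2011.1 and R 2.15.3.

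Intensities were corrected with limma 3.58.1 in R 4.3.3 (neqc, offset 16), quantile normalized and taken to log2. Probes with a detection p-value under 0.05 on at least 2 arrays were kept (22377). Names came from the platform annotation, updated by identifier to RefSeq GRCh38.p14 (30113 probes with 1 symbol, 8 with several, 17202 unnamed; 20020 of 20046 genes matched). The detected probe with the highest mean stood for each of 12547 genes, and the 3 member probes were fitted among all detected probes. Group means were fitted to all 6 arrays with limma (trend, 3 residual degrees of freedom), with Benjamini-Hochberg adjustment over all genes and a threshold of 0.05. Where no probe of a gene was detected on either array of a group, a least fold is given, against the higher of its own value and the lowest detected signal on each array. The fit was tested on simulated data.

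The members and gene lists were chosen with earlier results of these data known. The rule for names took all member probes, RPL5, RPL11, GTF3A and SSB, every tested gene of the lists of other structural RNAs, up to 4 called genes with the largest change per further list and comparison, of which those that bear most on the 2 RNAs are described, and the 5 nearest profiles of each probe. Alternatives changed the background correction, scaling, filter, probe choice, block and arrays used. The number of arrays limits the precision. Slide and scan date are not given in the sources used here.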

Additional observations from a re-analysis of the deposited data

How the results depend on the processing

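The differences of the 3 member probes moved by more than their replicate spread only for RNA5S9 and only where the background was treated differently. Against control at 30 and 60 min they were 2.84 and 3.48 without background correction, 3.09 and 3.74 with a neqc offset of 50, and 2.84 and 3.48 in the authors' deposited processed table. Median scaling and cyclic loess moved no member probe by more than that spread. Nor did leaving out 1 array, but the spread comes from the same replicates, so that comparison says little. ILMN_1733559 then ranged from 0.56 to 1.24 at 60 min against control. With median scaling 57 genes were lower at 30 min against control, in place of 22. The genes higher at 60 min then numbered 404 against control, in place of 1323, and 443 against 30 min, in place of 1368, while the median over all genes at 60 min against control moved to -0.06. With no detection filter 12 genes were lower at 30 min against control. When 1 array was left out, the genes higher and lower numbered 10 to 66 and 1 to 99 at 30 min against control, 571 to 1252 and 668 to 1516 at 60 min against control, and 678 to 1190 and 644 to 1395 at 60 min against 30 min. The lowest counts at 60 min against control came without control replicate 2, and the highest at 30 min without a 60 min array; the cause was not tested beyond the smaller number of arrays. With the replicate number as a block 17 genes were higher and 18 lower at 30 min against control, 1331 and 1554 at 60 min against control, and the member differences were as reported. Same-numbered arrays deviated together by correlations of only 0.04, 0.08 and -0.06 across genes. No pairing by number shows in these values, which cannot settle whether such arrays were prepared together. Among the genes named beside the members, no call changed direction in any alternative, 124 repeats of a call fell below the threshold and 13 repeats passed it that had not. At 60 min against control the number of polymerase III RNAs that rose was 6 to 7 when 1 array was left out and 4 of 9 with detection required on all 6 arrays, while 0 to 2 5S-binding protein genes rose and 2 to 4 polymerase III factor genes fell when 1 array was left out. RMRP and VTRNA1-1 were not above background in controls, so their folds are bounds, which were not reached without background correction.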
